A study of Mus musculus with 6 samples.

Results

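The levels of 9 genes of insulin and PI3K signalling were followed in mouse bone marrow: the receptor genes Insr and Igf1r, the receptor substrate genes Irs1 and Irs2, the kinase subunit genes Pik3r1 and Pik3cd, the inhibitor genes Pik3ip1 and Inpp5d, and the transcription factor gene Foxo3. These 9 genes, of 18193 named genes on the array, were chosen by symbol with the sorted and presort values of these same 6 arrays already known. Their differences between the groups are therefore given as a description, without a test. The sorted group (n = 3) held marrow cells sorted for green fluorescent protein (GFP), and the presort group (n = 3) held unsorted cells of the same marrow. All mice of both groups were adults of 3 to 6 months, male and female, hemizygous for a transgene whose renin sequences drive GFP. Marrow of 4 to 5 mice was pooled for each replicate, and each pool gave 1 sorted and 1 presort array, so single animals cannot be told apart. The gate let in 0.1% of cells from mice without the transgene, and erythrocytes and debris were removed by scatter for the sorted samples alone.

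Insulin and insulin-like growth factors bind the receptor kinases encoded by Insr and Igf1r, which phosphorylate the docking proteins Irs1 and Irs2. Phosphorylated docking proteins recruit class I PI3K, a dimer of a regulatory and a catalytic subunit, which makes the membrane lipid PIP3; the phosphatase SHIP1, the product of Inpp5d, removes PIP3. PIP3 activates the kinase Akt, and Akt keeps FOXO transcription factors out of the nucleus. In the B lineage, PI3K and FOXO activity are known to set the order of progenitor stages, and p110delta, the product of Pik3cd, is the catalytic subunit best known in leukocytes.

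The sorted and presort samples differed in cell type markers and in RNA quality. All 9 measured B lineage markers of 10 listed rose, with summed intensities of 72816 to 78575 in sorted and 10474 to 21259 in presort samples. Falls were called for 7 of 8 erythroid markers (16226 to 27929 in sorted, 53530 to 56485 in presort), for 10 of 10 neutrophil markers (37237 to 63245, against 148499 to 156943 in presort) and for 9 of 10 monocyte and macrophage markers (6224 to 9290, against 25405 to 32025 in presort). Of the T cell markers 0 of 6 were called in either direction (668 to 958 in sorted, 968 to 1249 in presort), and 3 of 6 NK cell markers fell (791 to 1840, against 3988 to 4637 in presort). Of 6 plasmacytoid dendritic cell markers 1 rose and 3 fell (2517 to 3191, against 1738 to 2096 in presort). The higher sorted sum of this last list rested on the 1 that rose, Tcf4, with geometric means of 2113 in sorted and 789 in presort samples. Cd79b, a chain of the B cell receptor, averaged 14.20 ± 0.16 in sorted and 11.63 ± 0.53 in presort samples (SD, log2 intensity, n = 3 each). The erythroid factor gene Klf1 averaged 9.54 ± 0.47 in sorted and 12.73 ± 0.31 in presort samples, and the granule enzyme gene Mpo averaged 12.28 ± 0.55 in sorted and 14.38 ± 0.07 in presort samples. The macrophage receptor gene Csf1r averaged 10.11 ± 0.93 in sorted and 12.91 ± 0.19 in presort samples, and the T cell gene Cd3e, not called (limma adjusted p = 0.771), 6.52 ± 0.27 in sorted and 6.60 ± 0.12 in presort samples. The beta-actin 3' to 5' difference, that is, the log2 intensity of the 3' control probe set minus that of the 5' one, was 3.17, 1.54 and 1.43 in sorted replicates 1, 2 and 3 and 1.11, 0.95 and 0.81 in presort replicates 1, 2 and 3 (two-sided exact permutation test p = 0.1, the smallest that 3 against 3 allows). Sorted replicate 1 stood apart in this measure, which is used as a sign of RNA degradation. The part of these cell type and RNA differences in the values below was not tested, and in such bulk samples fewer cells of a type and less RNA per cell cannot be told apart. The sort was not checked against renin or GFP itself.

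The 9 genes differed in direction and size. Irs1, Irs2 and Pik3ip1 were higher in sorted samples by 2.03 to 4.41 on the log2 scale, Igf1r and Foxo3 were lower by 2.39 and 0.66, and Insr, Pik3r1, Pik3cd and Inpp5d differed by 0.17 to 0.50. The median difference of the 9 genes was 0.44, against -0.00 over all 18193 genes, and 7 of the 9 differences were positive, against 9042 of 18193. All sorted arrays lay above all presort arrays for 4 of the 9 genes (Irs1, Irs2, Pik3cd and Pik3ip1), as they did for 20.9% of all genes, and below them for 2 (Igf1r and Foxo3), as they did for 23.6% of all genes. With a call set at an adjusted p under 0.05 by limma over all genes, 3 of the 9 were called higher (Irs1, Irs2 and Pik3ip1) and 2 lower (Igf1r and Foxo3), where 14.5% of all genes were called higher, 18.1% lower and 32.6% in either direction. Since these genes were selected on this very contrast, nothing is read from that count.

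**Figure D1:**
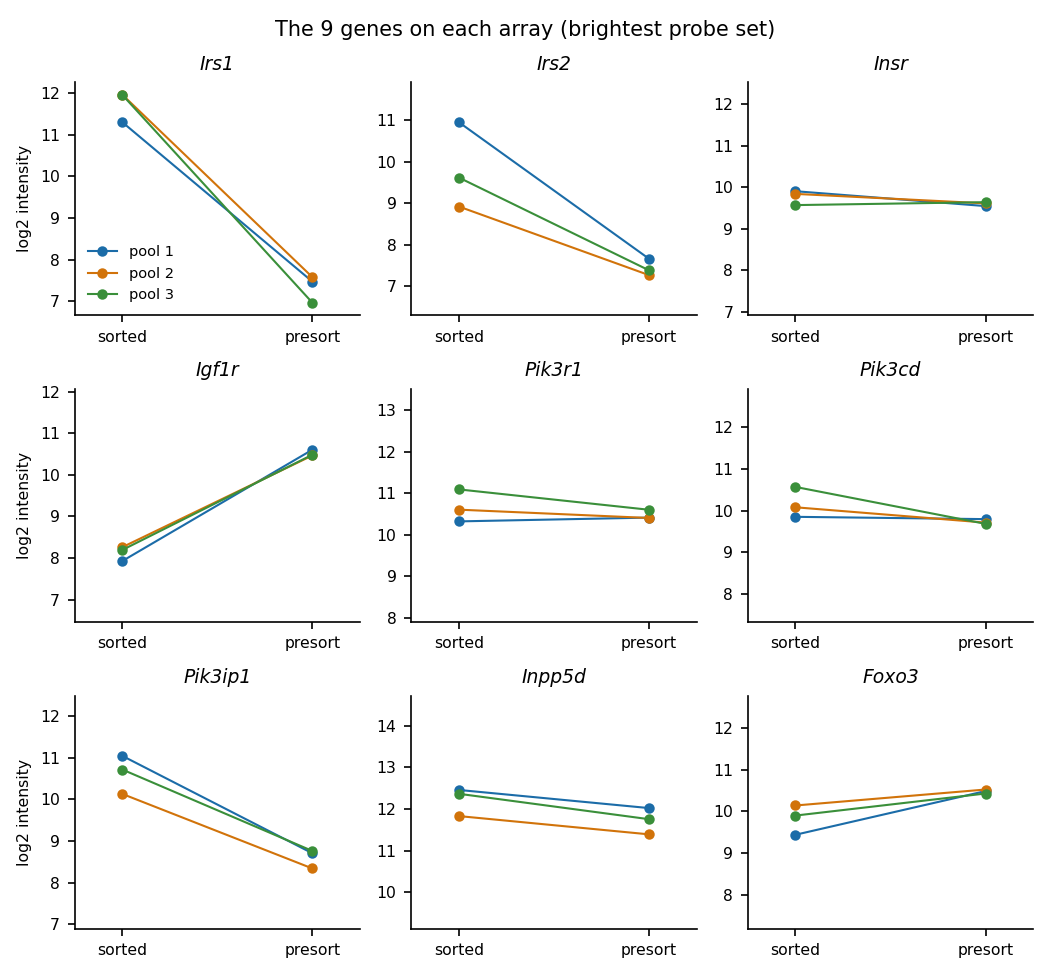
Log2 intensity of each of the 9 genes (y axis, 1 panel a gene, each spanning the same log2 range) in sorted and presort samples (x axis), with 1 point an array and a line joining the 2 arrays of a pool. The lines of Irs1, Irs2 and Pik3ip1 lie higher at the sorted end in all 3 pools, those of Igf1r and Foxo3 lower, and sorted replicate 1 of Irs2 lies at 10.95, above the other sorted arrays.

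The 2 receptor genes differed from each other. Insr, which encodes the insulin receptor, stood at 9.90, 9.84 and 9.57 in sorted replicates 1, 2 and 3 and at 9.54, 9.61 and 9.64 in presort replicates 1, 2 and 3 (log2 intensity). The groups overlapped, with a difference of 0.17 ± 0.11 (SE) that was negative in pool 3. Igf1r, which encodes the type 1 receptor of insulin-like growth factors, stood at 7.93, 8.26 and 8.19 in sorted and at 10.61, 10.47 and 10.48 in presort samples. Every sorted array was below every presort array, by -2.68, -2.21 and -2.29 in pools 1, 2 and 3, a mean difference of -2.39 ± 0.11 (SE) or 5.25-fold lower. The 4 dimmer probe sets of Igf1r gave -2.44, -1.94, -1.86 and -0.19, the smallest of them at the dimmest probe set, which read 5.35 in sorted and 5.54 in presort samples. The lower Igf1r went along with lower erythroid, neutrophil and monocyte markers, whose part in it was not tested. For Insr the 2 dimmer probe sets gave 0.00 and -0.08. The sign of Insr was positive under each scaling tried, but its size ran from 0.03 with the mean of its probe sets to 0.40 after centring the arrays on their medians; without pool 1 it was 0.08.

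Irs1 and Irs2 were both higher in sorted samples, Irs2 with the wider spread among sorted arrays. Irs1 stood at 11.31, 11.97 and 11.96 in sorted replicates 1, 2 and 3, against 7.47, 7.58 and 6.96 in presort replicates 1, 2 and 3. The groups lay far apart: the difference was 3.84, 4.39 and 5.00 in pools 1, 2 and 3, with a mean of 4.41 ± 0.29 (SE), or 21.3-fold. Only 3 of the 18193 genes had a larger positive difference. Irs2 stood at 10.95, 8.92 and 9.62 in sorted and at 7.66, 7.27 and 7.39 in presort samples. Its differences were 3.29, 1.65 and 2.23, with a mean of 2.39 ± 0.61 (SE), or 5.24-fold, and its sorted SD of 1.03 exceeded that of each of the other 8 genes, which ran from 0.18 to 0.46. The highest Irs2 value came from sorted replicate 1, the array with the highest beta-actin 3' to 5' difference. Without that array the Irs2 difference was 1.83, and with the beta-actin difference as a covariate it was 1.33, whereas Irs1 was then at 4.78. In that covariate every sorted array exceeded every presort array, so fits with it cannot cleanly separate RNA quality from the sort. Each of the 2 substrates was read by 1 probe set, so neither has a second reading on these arrays. The lowly read relatives Irs3 and Irs4 differed by 0.01 and -0.19 and were not called (limma adjusted p = 0.957 and 0.281).

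Because Irs1 and Irs2 were higher together, their promoter windows were set side by side, with that of Pik3ip1, the third of the genes that were higher by over 2, for comparison. The windows, from RefSeq on GRCm38.p6, run from 250 bases before to 50 bases after the annotated start on the strand of the gene. A window was found for 8 of the 9 genes. Capitals mark CACGTG, the letters of an E-box, and TGTTTTG, searched on both strands; in Irs1 the first TGTTTTG shares its opening TG with the E-box. These patterns were picked after the sequences had been read.
Irs1, chr1:82291390-82291689, minus strand: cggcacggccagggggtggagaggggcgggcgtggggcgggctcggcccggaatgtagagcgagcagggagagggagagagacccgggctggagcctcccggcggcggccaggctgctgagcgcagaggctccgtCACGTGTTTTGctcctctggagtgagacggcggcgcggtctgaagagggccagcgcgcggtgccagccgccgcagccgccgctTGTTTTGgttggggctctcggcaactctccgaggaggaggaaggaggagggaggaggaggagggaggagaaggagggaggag
Irs2, chr8:11008880-11009179, minus strand: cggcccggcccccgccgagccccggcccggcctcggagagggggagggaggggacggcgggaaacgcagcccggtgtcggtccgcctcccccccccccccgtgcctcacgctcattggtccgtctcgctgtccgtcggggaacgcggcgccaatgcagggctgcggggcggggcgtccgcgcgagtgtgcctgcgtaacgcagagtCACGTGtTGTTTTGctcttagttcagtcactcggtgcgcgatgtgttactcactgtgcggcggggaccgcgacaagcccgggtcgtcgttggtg
Pik3ip1, chr11:3330481-3330780, plus strand: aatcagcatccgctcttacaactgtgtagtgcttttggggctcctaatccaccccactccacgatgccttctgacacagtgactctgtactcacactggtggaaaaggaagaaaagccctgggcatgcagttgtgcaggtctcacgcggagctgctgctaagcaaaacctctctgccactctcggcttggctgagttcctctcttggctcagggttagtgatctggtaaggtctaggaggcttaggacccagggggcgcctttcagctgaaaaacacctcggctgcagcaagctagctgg
The E-box letters begin 115 bases before the start in Irs1 and 44 bases before it in Irs2, with TGTTTTG overlapping them in Irs1 and beginning 37 bases before the start in Irs2. The longest runs that the 2 windows share have 10 bases, and there are 2 of them, GTCACGTGTT around the E-box letters and TGTTTTGCTC beginning at the other pattern. Each was present on either strand in 25 of 32851 promoter windows of all genes (0.0761%). The runs were found by matching these 2 windows to each other, so this share does not measure how unusual the sharing is. CACGTG alone was present in 7.15% of all windows, TGTTTTG in 6.28% and both in 0.408%. None of the other 9 windows of the 9 genes held either of them. With shares this low, absence from so few windows says little. The forkhead pattern GTAAACA, present in 3.65% of all windows, was in none of the 11 windows, which says only that these letters are not in them.

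By the root mean square distance between log2 profiles over the 6 arrays, each centred on its own mean, the genes most like Irs1 were Myzap (0.23), Sertad4 (0.34), Klhl14 (0.35), the extracellular matrix glycoprotein gene Reln (0.38) and Ly6d (0.40). Myzap was at 9.82, 10.18 and 10.04 in sorted replicates 1, 2 and 3 and at 6.18, 6.04 and 5.63 in presort replicates 1, 2 and 3. Like Irs1, it was lowest in presort replicate 3 and had its widest gap in pool 3. Reln differed by 3.43, 3.44 and 4.19 in pools 1, 2 and 3. For Igf1r, the gene with the lowest difference of the 9, the nearest profiles were those of Nlrx1 (0.05), Prc1 (0.08) and Jchain (0.08), whose differences were -2.44, -2.25 and -2.51. With 2 groups of 3 arrays, closeness in these distances rests largely on the size of the group difference.

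Both PI3K subunit genes had differences under 0.5, whose size varied with the processing. Pik3r1 encodes p85alpha, the regulatory subunit that binds phosphorylated docking proteins. It stood at 10.32, 10.60 and 11.09 in sorted replicates 1, 2 and 3 and at 10.41, 10.40 and 10.60 in presort replicates 1, 2 and 3, so the groups overlapped and the difference was 0.20 ± 0.23 (SE). Its 4 probe sets did not share a sign, at 0.20, 0.06, -0.48 and -0.49 from the brightest to the dimmest, and their mean gave -0.18. Without sorted replicate 3 the difference was -0.01, without sorted replicate 1 it was 0.38, after centring the arrays it was 0.43, and with the beta-actin covariate it was 0.56. Pik3cd, which encodes p110delta, stood at 9.85, 10.08 and 10.57 in sorted and at 9.79, 9.71 and 9.68 in presort samples. All sorted arrays were above all presort arrays, although in pool 1 by only 0.06, and the difference of 0.44 ± 0.21 (SE) came mostly from pool 3 at 0.89. Without pool 3 it was 0.21, without sorted replicate 3 it was 0.24, and with the mean of probe sets 0.25, whereas centring gave 0.66 and the beta-actin covariate 0.74. Of its 6 probe sets 5 had a positive difference, from 0.21 to 0.49, and 1 a negative one of -0.26.

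The 2 inhibitors of the pathway were both higher by the mean, Pik3ip1 by more. Pik3ip1 encodes a membrane protein that binds and inhibits the PI3K catalytic subunit. It stood at 11.05, 10.13 and 10.72 in sorted and at 8.71, 8.34 and 8.76 in presort replicates 1, 2 and 3. The differences of 2.34, 1.79 and 1.96 in pools 1, 2 and 3 were close to one another, with a mean of 2.03 ± 0.30 (SE), or 4.09-fold, and the other probe set gave 1.77. Inpp5d, the SHIP1 gene, which blood cells express, stood at 12.46, 11.83 and 12.37 in sorted and at 12.02, 11.39 and 11.76 in presort samples. The groups overlapped, yet within each pool the sorted array was higher, by 0.44, 0.44 and 0.61. The mean was 0.50 ± 0.27 (SE from the spread within groups, not from the pool differences). The spread over pool differences was 0.10 (SD), below the SD within the groups (0.34 in sorted, 0.32 in presort), since pool 2 was low in both. The other Inpp5d probe set gave 0.28. With the beta-actin covariate the Inpp5d difference was 0.26.

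Foxo3 encodes a transcription factor that Akt inactivates by phosphorylation. It stood at 9.44, 10.14 and 9.90 in sorted replicates 1, 2 and 3 and at 10.49, 10.53 and 10.43 in presort replicates 1, 2 and 3. All sorted arrays were below all presort arrays, by -1.05, -0.38 and -0.53, with a mean of -0.66 ± 0.21 (SE), or 1.58-fold lower. The widest gap came from sorted replicate 1, which had the highest beta-actin 3' to 5' difference, and with that difference as a covariate the value was -0.30. Centring the arrays gave -0.43. The second probe set gave -0.98 and the third, dim at 5.12 in sorted and 5.21 in presort samples, gave -0.09.

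**Figure D2:**
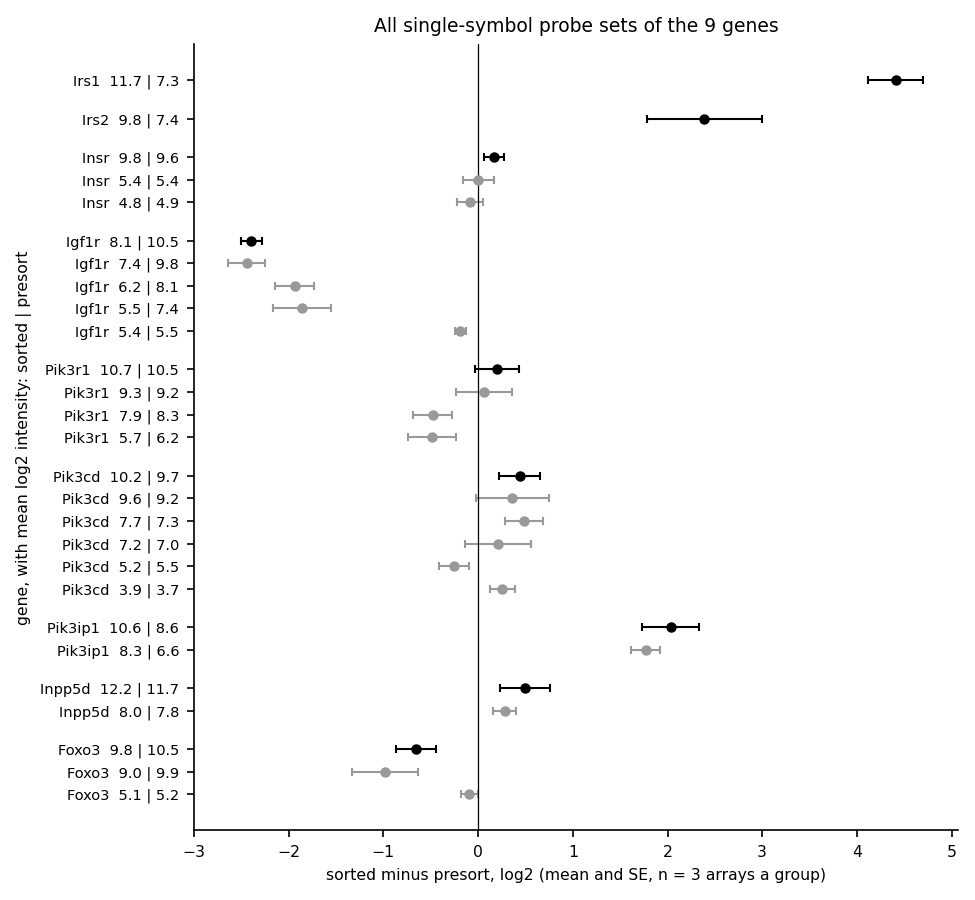
Sorted minus presort difference (x axis, log2, mean and SE of 3 arrays a group) of every single-symbol probe set of the 9 genes, ordered within a gene from the brightest (black) to the dimmest (grey), with the sorted and presort mean intensities beside each name. For Igf1r 4 of the 5 probe sets lie between -2.44 and -1.86, whereas the Pik3r1 probe sets lie on both sides of 0.

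Within gene families the members and their relatives differed in direction. Among FOXO genes, Foxo1, a factor that B lineage development needs, rose by 2.92 ± 0.26 (SE, 7.55-fold, limma adjusted p = 9.2e-05). It stood at 13.06, 12.45 and 12.50 in sorted replicates 1, 2 and 3 and at 10.23, 9.72 and 9.30 in presort replicates 1, 2 and 3. Foxo4 was at -0.06 and not called (adjusted p = 0.826), beside the lower Foxo3. Among class I catalytic subunits, Pik3cb (p110beta) fell by 3.03 ± 0.16 (SE, 8.15-fold lower, adjusted p = 1.93e-05), at 6.31, 5.72 and 6.01 in sorted and 9.19, 8.97 and 8.96 in presort samples. Pik3ca (p110alpha) rose by 1.18 ± 0.25 (SE, 2.27-fold, adjusted p = 0.00819), a call lost without pool 3 (1.11, adjusted p = 0.0784) and with the beta-actin covariate (0.77, adjusted p = 0.0931). Pik3cg (p110gamma), the brightest of the other PI3K subunits, was at 0.63 and missed the call (adjusted p = 0.0576), but it was called higher under 8 of the 17 alternatives. These were the replicate block (adjusted p = 0.0293), leaving out sorted replicate 2 (0.76, 0.0437) or presort replicate 3 (0.82, 0.0238), centring (0.86, 0.0194), quantile normalization (0.67, 0.0444), the mean of probe sets (0.55, 0.0126), leaving out the dimmest genes (0.0436) and the intensity trend (0.0429). The regulatory partners of p110gamma both fell, Pik3r6 by 2.16 ± 0.21 and Pik3r5 by 0.82 ± 0.17 (SE). The call of Pik3r5 was lost without pool 2 (-0.81, adjusted p = 0.0590) or pool 3 (-0.69, 0.0842). Other regulatory subunit genes did not fall: Pik3r2 rose by 0.57 ± 0.11 (SE, limma adjusted p = 0.0046). Pik3r3, dim at 5.46 in sorted and 4.99 in presort samples, was at 0.47 and not called (adjusted p = 0.189). Inppl1, the SHIP2 gene and closest relative of Inpp5d, was at 0.29 and not called (adjusted p = 0.0594). These family differences were not tested against one another.

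**Figure D3:**
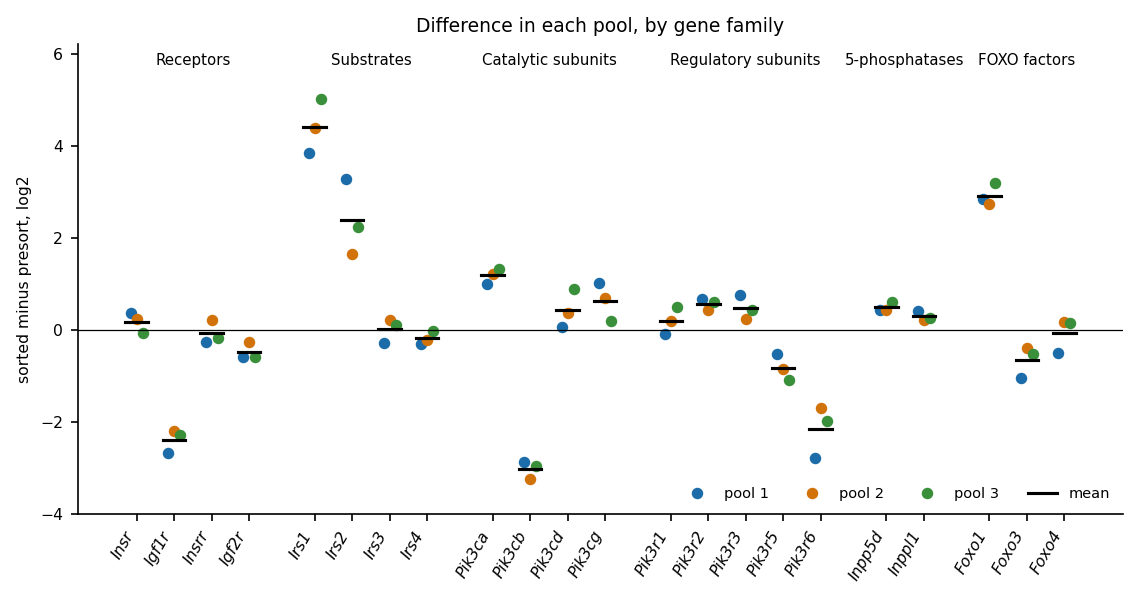
Sorted minus presort difference in each of the 3 pools (points, y axis, log2) and their mean (bar), by family along the x axis. Shown are the 9 genes other than Pik3ip1, and genes grouped with them by family. Foxo1 lies near 3 while Foxo3 lies below 0, and Pik3cb lies near -3 while the other 3 catalytic subunits have positive means.

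The other genes of the pathway were taken from 7 lists with 167 genes, of which 156 were analysed here. They were called with limma over all 18193 genes. In all, 49 rose (31.4%) and 33 fell (21.2%), and 74 were not called, beside the 14.5% and 18.1% of all genes. The median difference of the 156 genes was 0.09. After centring the arrays the counts were 67 and 24, that is, 73.6% of the calls were higher, against 59.8% as deposited. Over all genes centring gave 66.7% of calls as higher, against 44.4% as deposited, and moved the median of all genes to 0.23. Without sorted replicate 1 the counts were 49 and 33.

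Of 13 ligands, other receptors and binding proteins, 0 rose and 3 fell (23.1%), with a median of 0.03. For this list and those below, the shares of all genes were 14.5% higher and 18.1% lower. Igf1, the ligand of Igf1r, fell by 2.44 ± 0.17 (SE, 5.43-fold lower), to 5.82 ± 0.24 in sorted samples, against 8.26 ± 0.23 in presort samples (SD, log2 intensity, n = 3 each), and the groups did not overlap. The binding protein gene Igfbp4, the brightest of the list, fell by 2.05 ± 0.18, and Igf2r, which clears the ligand Igf2, by 0.48 ± 0.11. The limma adjusted p of these 3 falls was at most 0.0133. Leaving out presort replicate 3 (-0.45), pool 1 (-0.43) or pool 3 (-0.42) ended the Igf2r call (limma adjusted p 0.0610 to 0.153). So did the beta-actin covariate (-0.39) and either rescaling (-0.25 after centring, -0.24 after quantile normalization over named genes). The lower Igf1 and Igf1r stand beside lower macrophage and monocyte markers, whose part was not tested.

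Of 28 adaptors, 5 rose (17.9%) and 6 fell (21.4%), with a median of -0.10. Pik3ap1, an adaptor that links the B cell receptor to PI3K, rose by 1.99 ± 0.40 (SE), Sh2b3, an adaptor that dampens cytokine signals, by 1.15 ± 0.22 and Dok3, an inhibitory adaptor of B cells, by 0.92 ± 0.23. Grb10 and Grb14, which bind and restrain the insulin receptor, fell by 2.03 ± 0.17 and 0.78 ± 0.22, and Dok2 by 0.88 ± 0.15. The limma adjusted p of these 6 calls was at most 0.0268. Pik3ap1 stood at 13.17, 13.04 and 13.26 in sorted and at 11.93, 10.12 and 11.46 in presort samples, and its call was lost without pool 3 (2.08, adjusted p = 0.0570). The call of Dok3 was lost without presort replicate 2 (0.83), pool 2 (0.84) or pool 3 (0.74), and that of Grb14 without sorted replicate 2 or 3, presort replicate 1 or 3, pool 1 or pool 3 (-0.82 to -0.57, adjusted p 0.0517 to 0.212), after centring (-0.55) and with the beta-actin covariate (-0.87). The Sh2b3 call was lost with the beta-actin covariate (0.78, 0.0507). With the mean of their probe sets Grb10 was at -0.76 and Grb14 at -0.41.

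Of 11 other PI3K subunits, 5 rose (45.5%) and 3 fell (27.3%), with a median of 0.57. Besides Pik3ca, Pik3cb, Pik3r2, Pik3r5 and Pik3r6 above, Pik3r4, the regulatory partner of the class III enzyme, rose by 1.18 ± 0.29 (SE, limma adjusted p = 0.0151) and the class II gene Pik3c2a by 1.04 ± 0.16 (0.00142). Pik3r4 missed the call when presort replicate 2 (1.16), presort replicate 3 (1.17) or pool 3 (1.24) was left out (limma adjusted p 0.0516 to 0.0994), and under the beta-actin covariate (0.51, 0.105). Averaging its probe sets put Pik3c2a at 0.55.

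Of 17 other phosphoinositide and Akt phosphatases, 4 rose (23.5%) and 6 fell (35.3%), with a median of 0.11. Phlpp1, which dephosphorylates Akt, rose by 1.20 ± 0.20 (SE), and the inositol lipid phosphatase genes Inpp5k and Inpp5f by 1.10 ± 0.21 and 0.69 ± 0.16. The phosphatase genes Ocrl, Inpp4a and Synj1 fell by 1.72 ± 0.24, 1.30 ± 0.38 and 1.21 ± 0.10. The limma adjusted p of these 6 calls was at most 0.0320. Ppp2ca, the brightest of the list, was at -0.04 (adjusted p = 0.846), but its probe sets averaged to 0.68, a call (0.0173). The call of Inpp4a was lost when any sorted replicate, presort replicate 1 or 2, pool 1 or pool 2 was left out (-1.40 to -0.96, adjusted p 0.0528 to 0.146), after either rescaling (-1.07 and -1.13) and with the beta-actin covariate (-1.52); the mean of its probe sets gave -0.75. That of Inpp5f was lost with the beta-actin covariate (0.51, 0.111) and that of Synj1 with the mean of its probe sets (-0.51, 0.211). Ocrl was at -1.02 and Inpp5k at 0.69 with the mean of their probe sets, and Inpp5k was at 0.69 with the covariate too.

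Of 27 effectors that bind PIP3 or related lipids, 11 rose (40.7%) and 7 fell (25.9%), with a median of 0.23. Swap70, a signalling protein of B cells, rose by 2.18 ± 0.26 (SE), the exchange factor gene Vav2 by 1.91 ± 0.26 and Plekha2, the brightest of the list, by 1.83 ± 0.15. Bmx, a kinase of the Tec family, fell by 3.64 ± 0.12 (12.5-fold lower), to 5.81, 6.04 and 5.72 in sorted replicates 1, 2 and 3, against 9.55, 9.49 and 9.46 in presort replicates 1, 2 and 3. Arap3 fell by 2.95 ± 0.18 and Vav3 by 2.00 ± 0.11, so that Vav2 and Vav3 went opposite ways. The limma adjusted p of these 6 calls was at most 0.000789. Averaging the probe sets put Vav2 at 0.73.

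Of 25 kinases and regulators of the Akt and mTOR arm, 8 rose (32%) and 5 fell (20%), with a median of 0.09. Trib2, a pseudokinase of the Tribbles family, rose by 3.50 ± 0.32 (SE, 11.4-fold), to 12.45 ± 0.65 in sorted samples, against 8.94 ± 0.33 in presort samples (SD, log2 intensity, n = 3 each), and the groups did not overlap. Ddit4, an inhibitor of mTOR complex 1, rose by 1.63 ± 0.41 and Rictor, the scaffold of mTOR complex 2, by 1.52 ± 0.42. Tbc1d7, a subunit of the TSC complex, fell by 1.27 ± 0.19, the mTOR subunit gene Mlst8 by 1.13 ± 0.17 and the kinase gene Sgk3 by 0.92 ± 0.10. The limma adjusted p of these 6 calls was at most 0.0249. Rheb, the brightest of the list, was at -0.19 (adjusted p = 0.438) and passed the test without sorted replicate 1 (-0.35, 0.0454) and with the beta-actin covariate (-0.50, 0.0296). Ddit4 missed the call when presort replicate 1 (1.40), presort replicate 3 (1.54) or pool 3 (1.14) was left out, and Rictor without sorted replicate 2 (1.56), presort replicate 2 (1.27), presort replicate 3 (1.44) or pool 2 (1.31). With the beta-actin covariate Rictor was at 0.67 (0.264). With the mean of their probe sets Trib2 was at 2.05 and Tbc1d7 at -0.51.

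Of 35 other FOXO factors and genes known to respond to FOXO factors in some tissue, 16 rose (45.7%) and 3 fell (8.57%). The median was 0.18, and Foxo1 was 1 of the 16. S1pr1, which guides lymphocyte egress, rose by 3.15 ± 0.42 (SE, 8.85-fold), with 10.20, 9.33 and 10.28 in sorted replicates 1, 2 and 3, against 7.55, 6.94 and 5.90 in presort replicates 1, 2 and 3. The chemokine receptor gene Ccr7 rose by 2.87 ± 0.17 (7.29-fold) and Trp53inp1, the brightest of the list, by 1.27 ± 0.10. Sesn2, a stress protein gene, fell by 1.02 ± 0.18, the mitochondrial superoxide dismutase gene Sod2 by 0.57 ± 0.10 and the death ligand gene Tnfsf10 by 0.38 ± 0.12. The limma adjusted p of these 6 calls was at most 0.0489. The genes of gluconeogenesis that FOXO factors drive in liver, Pck1 and G6pc, were at -0.14 and -0.00 and not called (limma adjusted p = 0.459 and 0.993). These genes were named after their values were seen. Both were dim, Pck1 at 4.29 in sorted and 4.43 in presort samples and G6pc at 4.60 in each, so little can be read from their differences. Several of the genes that rose, such as S1pr1 and Ccr7, are lymphocyte genes too, and the part of the higher B lineage markers in them was not tested. The Tnfsf10 call was lost under each of the 17 alternatives (adjusted p from 0.0502 to 0.360; 0.0739 with the replicate block), and its value was -0.23 without pool 1, -0.15 after centring, -0.20 after quantile normalization and -0.24 with averaged probe sets. Sod2 was at -0.34 after centring and Sesn2 at -0.64 with the beta-actin covariate.

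**Figure D4:**
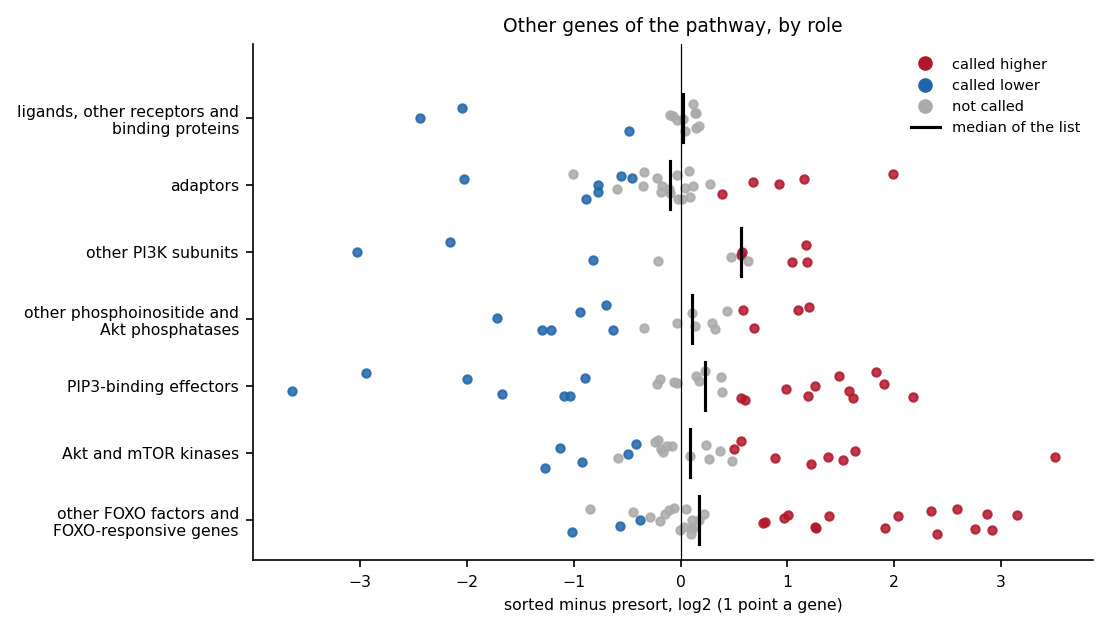
Sorted minus presort difference (x axis, log2) of the 156 analysed pathway genes that are not among the 9, 1 point a gene, in 7 rows by role (y axis). Red points were called higher, blue points lower and grey points not called by limma over all genes, and the black bar is the median of the list. The list of FOXO factors and FOXO-responsive genes holds 16 red and 3 blue points, and the list of ligands, other receptors and binding proteins holds 0 red and 3 blue points. Over all genes 14.5% were called higher and 18.1% lower.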

How the data were processed

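Affymetrix 3' expression arrays were used, 1 for each of 6 samples. Per the submitters' processing notes, the authors made the deposited intensities with RMA, whose version was not given in the sources used here. They are linear, from 9.71 to 38492.08 on every array, with nearly the same quantiles on all 6. RNA was extracted with Trizol and labelled from the 3' end, per the labels' protocols, so degraded RNA lowers probe sets far from the 3' end most. There are no detection calls, and the number of arrays limits the precision. Differences of dim genes are understated.

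Log2 was taken with no pseudocount. Of 45101 probe sets, 34945 carried 1 gene symbol and 932 several, which were left unnamed; 9160 had none and 64 were controls. The brightest probe set over the 6 arrays stood for a gene. A two-sided limma test (version 3.58.1, R 4.3.3, lmFit and eBayes, with 4 residual degrees of freedom) gave p-values, adjusted by Benjamini-Hochberg over 18193 genes. The errors of the 9 genes are unmoderated standard errors and those of other genes limma's. Both take the groups as unpaired. The script was checked on simulated data. Figures were drawn with matplotlib 3.10.9.

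Same-numbered samples come from 1 pool, per the series' design text, and so are paired; across genes, the correlation of their deviations from the group mean was 0.39 for pool 1, 0.203 for pool 2 and -0.0261 for pool 3. A replicate block was one alternative. Others left out each array or pool, rescaled the arrays in 2 ways, averaged probe sets, dropped _x_at and _s_at probe sets or the dimmest genes (33.3%), or used an intensity trend with a robust prior or a beta-actin 3' to 5' covariate. Since that covariate was higher in every sorted than in every presort array, its fits do not give differences corrected for RNA quality. The 9 genes and all lists were chosen with earlier results of these data known. Named are the 9 genes, up to 3 called genes a list with the largest difference in each direction, and the brightest gene of a list. Named besides were 5 marker genes, Tcf4, Pck1, G6pc, the genes nearest to Irs1 and Igf1r and, other than Insrr, the relatives in the family plot. No test over a list was made.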

Additional observations from a re-analysis of the deposited data

How the results depend on the processing

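Over 17 alternatives, 138 of 153 recomputed differences of the 9 genes moved by less than the SD of the pool differences, 13 moved by more, and 2 turned sign, both of Pik3r1 (-0.18 with the mean of probe sets; -0.0099 without sorted replicate 3, the lowest value when an array or pool was left out, the highest being 0.375). The replicate block, the intensity trend and dropping the dimmest genes or _x_at and _s_at probe sets could not change these differences. Their values are among the 138 by construction. For the 43 named pathway genes, 654 of 729 values stayed called or uncalled, 64 lost the call and 10 gained it. The remaining 1 was called with the opposite sign (Ppp2ca, 0.68 with the mean of probe sets). Turns of sign in genes that were uncalled both before and after were not counted. The median difference of the 9 genes was 0.66 after centring the arrays, 0.25 with the mean of probe sets, and 0.27 to 0.53 when an array or pool was left out. Over all genes 2629 were called higher; this was 5162 with centring, and 1544 to 2608 when an array or pool was left out, lowest without pool 3. With the replicate block 52 pathway genes rose and 34 fell, and among named genes only the calls of Pik3cg and Tnfsf10 differed. Pathway counts ran from 35 to 67 rises and from 24 to 34 falls. The cause of these moves was not tested. Dim probe sets, such as the third of Foxo3, limit what can be read from small differences.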
